A study of Hymenochirus boettgeri with 8 samples.

Results

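The comparison described here sets embryos at Nieuwkoop and Faber (NF) stage 26 against embryos at the 8-cell stage of Hymenochirus boettgeri, the dwarf clawed frog, at the level of whole assembly genes. The values of all transcripts of 1 assembly gene were summed, and a gene was included when its total reached 5 TPM (a unit that gives the length-scaled share of a transcript in its library) in at least 2 of the 4 libraries of these stages. By this rule 28592 of 145306 assembly genes (19.7%) were included. Each stage had 2 libraries of poly-A RNA from whole wild-type animals, and the same table holds 2 libraries of unfertilized eggs and 2 of swimming tadpoles, which were used here as libraries outside the comparison. No group carried a treatment or an altered allele. Ages in hours, the clutches and the number of embryos in a library are not stated in the labels, so the spread between 2 libraries of a stage may be technical. The table does not pair its identifiers with gene names. The stages were therefore not checked against marker genes, genes are described by abundance class and fold class, and few are given by identifier.

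A frog egg is loaded during oogenesis with RNA that directs the first cleavages, while the genome of the early embryo is largely silent. Transcription from the embryo's own genome starts at the midblastula transition, and much of the stored RNA is then broken down, some of it through loss of its poly-A tail. An 8-cell embryo is before this change and holds maternal RNA, whereas an NF stage 26 embryo is long past it: at that stage of Xenopus the neural tube has closed and the tail bud is forming. Poly-A capture counts RNA that carries a tail, so a change in tail length and a change in amount cannot be told apart in these libraries. Nor can fewer cells of a type and less RNA per cell. Stored RNA that was kept and RNA newly made from the same gene also cannot be told apart in a gene total at stage 26.

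Depth is unknown, because TPM carries no read totals. Column sums lay between 991754 and 998506 TPM. The 2 stage 26 libraries were unlike each other in composition. In stage 26 replicate 1, 4400 genes were needed to hold 50% of the TPM, and in replicate 2 only 853 were, against 977 and 1077 in the 8-cell libraries. The tadpole libraries showed a like contrast, with 1610 genes in replicate 1 and 4202 in replicate 2. Of their 100 most abundant genes, the 2 stage 26 libraries shared 48. Stage 26 replicate 1 shared 66 with tadpole replicate 2 and 43 with tadpole replicate 1, while stage 26 replicate 2 shared 67 with tadpole replicate 1 and 39 with tadpole replicate 2. The 2 8-cell libraries shared 81. Counts that moved by over 1.5 times without 1 of these libraries are given with their value without it.

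The way a gene met the minimum bears on how it could compare. In all 4 libraries 8537 of the included genes reached 5 TPM, and 5680 reached it in 3. Both stage 26 libraries and neither 8-cell library passed for 6954 genes, and both 8-cell libraries and neither stage 26 library for 5225. These 12179 genes had to differ in that direction, so counts of higher and lower genes are a description of the included genes and no support for a change. The remaining 2196 genes passed in 1 library of each stage. At the border, the lowest second-highest total was 5.0 TPM among included genes and 4.999 TPM among the others, and 2123 included genes had a second-highest total under 5.5 TPM while 2467 others had one of at least 4.5 TPM.

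Both directions of change were frequent. At stage 26 4952 of the 28592 genes (17.3%) rose and 2431 (8.5%) fell relative to the 8-cell stage, by limma's two-sided moderated test on log2(TPM + 1), at a Benjamini-Hochberg adjusted p under 0.05 over all 119072 genes tested. Over all tested genes, 10.6% were called higher and 3.27% lower. The median log2(TPM + 1) change was 3.46 among the genes that rose, with 80% of them between 2.66 and 4.89. It was -3.04 among the genes that fell, with 80% between -4.47 and -2.24. With median-of-ratios scaling 5401 genes rose and 1495 fell, so the share of calls that rose was 78.3% in place of 67.1%. The median log2(TPM + 1) change over all tested genes was 0.572 with TPM as deposited and 0.041 after quantile normalization. Over the 28592 included genes alone it was -0.273 as deposited, 0.077 with median-of-ratios scaling and -0.403 after quantile normalization. The number of calls depended on the libraries fitted and on the spread shared with the other stages. Leaving out a library also leaves fewer values to estimate a stage mean and the spread. Reliance on that library and lost precision therefore cannot be told apart. The median log2(TPM + 1) change over the included genes was -0.379 without 8-cell replicate 1 and -0.185 without 8-cell replicate 2. Fitted to the 4 compared libraries alone, limma called 0 genes higher and 0 lower, with 7235 higher and 6995 lower at an unadjusted p under 0.05. Without stage 26 replicate 1, 2658 genes rose and 588 fell, and without stage 26 replicate 2 the counts were 4315 and 1903. Without 8-cell replicate 1 or without 8-cell replicate 2 limma called 0 genes in either direction, and at an unadjusted p under 0.05 there were then 5661 higher and 3233 lower, or 5886 higher and 3822 lower.

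A second measure asked for the size of change that every pair of libraries showed, with no test. Each of the 2 stage 26 libraries was set over each of the 2 8-cell libraries on the TPM + 1 scale, which understates the change of low genes. In all 4 pairs 6985 genes (24.4%) were at least 2-fold higher at stage 26, and 6229 (21.8%) were at least 2-fold lower. Among all tested genes these shares were 19.9% and 8.73%. With median-of-ratios scaling 7855 included genes were 2-fold higher and 4252 lower, while quantile normalization turned the order, with 6630 higher and 6910 lower. At least 4-fold, 4909 genes (17.2%) were higher and 2557 (8.94%) lower, against 6.4% and 2.61% of all tested genes. The 4-fold lower count was 4035 without stage 26 replicate 1, 4463 without stage 26 replicate 2 and 1582 with median-of-ratios scaling. With a pseudocount of 5 TPM, 1074 genes were 4-fold higher and 795 lower. At least 16-fold, 687 genes were higher and 248 lower, 2.4% and 0.867% of the included genes. A 16-fold change on this scale needs more than 5 TPM in both libraries of 1 stage, so every such gene was included. The shares of all tested genes, 0.577% and 0.208%, therefore count the same 687 and 248 genes and give no contrast. These 16-fold counts moved most with the pseudocount: with 0.1 TPM in place of 1, 3404 genes were higher and 935 lower, and with 5 TPM, 101 and 74. Without stage 26 replicate 1, 1138 genes were 16-fold higher and 331 lower, and without replicate 2, 1736 and 576; without 8-cell replicate 2, 441 were lower. All genes called by limma lay in the 2-fold classes. The call covered 70.9% of the 6985 genes that were 2-fold higher and 39% of the 6229 that were 2-fold lower, and 90.9% and 71.3% of those at 4-fold. Within 2-fold in all 4 pairs lay 2634 genes (9.21%), against 16.2% of all tested genes, and 12744 fell in none of these classes. The within 2-fold count depends on the spread between replicates too: 42.8% of the included genes were at least 2-fold apart between the stage 26 libraries. All tested genes include many low ones, whose ratios the TPM + 1 scale narrows. With fewer pairs to meet, 6038 genes lay within 2-fold without stage 26 replicate 1, 6329 without stage 26 replicate 2, 4676 without 8-cell replicate 1 and 4678 without 8-cell replicate 2.

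**Figure D1:**
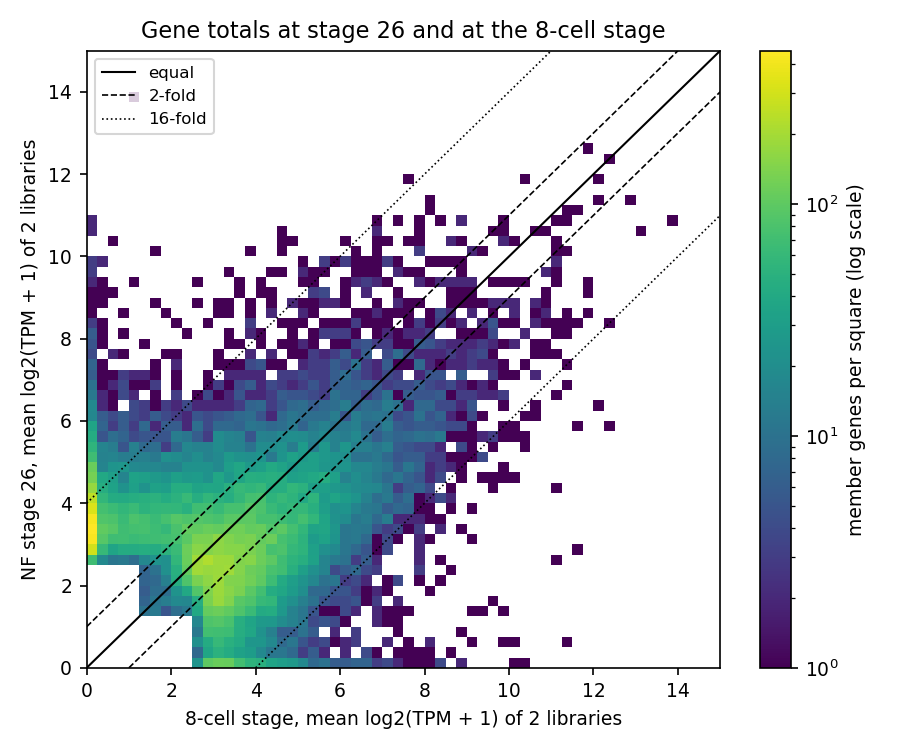
Genes by their mean log2(TPM + 1) at NF stage 26 (vertical) and at the 8-cell stage (horizontal), 2 libraries each, for the 28592 included genes; colour gives the number of genes per square on a log scale. A band of genes runs up the left edge, near 0 at the 8-cell stage, and another along the bottom, while the empty corner at the lower left is set by the minimum of 5 TPM.

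Genes that were higher at stage 26 were mostly absent or scarce in cleaving embryos. Of the 6985 genes at least 2-fold higher, 2099 (30.1%) were listed at 0 in both 8-cell libraries. A further 1899 (27.2%) were under 1 TPM in both and above 0 in 1 or both. Their median level in the stage 26 libraries was 16.2 TPM (replicate 1) and 11.4 TPM (replicate 2), against 0.255 and 0.313 TPM in the 8-cell libraries. Both stage 26 medians lay far above both 8-cell medians, as the class requires. A smaller group was raised from a level already seen at the 8-cell stage. In both 8-cell libraries 1820 genes (26.1%) had 1 TPM or more, 254 had 10 TPM or more and 24 had 100 TPM or more. Fewer of the 6985 genes met the same limit in eggs: 984 (14.1%) had 1 TPM or more in both egg libraries, and 4016 (57.5%) were under 1 TPM in both.

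Within the higher class, the TPM at stage 26 was divided unevenly by 8-cell level. The 6985 higher genes held 33.1% and 31.7% of the TPM in the stage 26 libraries, against 1.92% and 2.33% in the 8-cell libraries. Of this, the 2099 genes listed at 0 in both 8-cell libraries held 5.22% and 4.08% of the stage 26 TPM. The 1899 genes under 1 TPM in both, and above 0 in 1 or both, held 6.03% and 4.57%. The 1167 genes with 1 8-cell library under 1 TPM and 1 at 1 TPM or more held 5.93% and 3.38%. The 1820 genes with 1 TPM or more in both 8-cell libraries held 15.9% and 19.7% at stage 26, against 1.74% and 2.12% at the 8-cell stage. The 254 with 10 TPM or more in both held 9.6% and 14.2% at stage 26, against 1.15% and 1.46%. An exact permutation test (two-sided) of 2 values against 2 has 0.333 as its smallest p, so these shares were not tested. The 8-cell level that divides the class sets the 8-cell share of the genes listed at 0, and an upper bound for genes under 1 TPM in both. In the groups with 1 TPM or more or 10 TPM or more in both, it sets a lower bound on each gene's 8-cell level. Together with the 2-fold rule it also bounds the stage 26 level of those groups from below, so the shares are a description.

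Most genes that were lower at stage 26 had 1 TPM or more in both of its libraries. Of the 6229 genes at least 2-fold lower, 457 (7.34%) were listed at 0 in both stage 26 libraries. Another 744 (11.9%) were under 1 TPM in both and above 0 in 1 or both. In contrast, 3991 (64.1%) had 1 TPM or more in both stage 26 libraries, 1394 (22.4%) had 5 TPM or more and 632 (10.1%) had 10 TPM or more. The median level of the class was 2.48 and 2.49 TPM in the stage 26 libraries, against 20.3 and 17.4 TPM in the 8-cell libraries. These shares depend on the fold cut, since a 2-fold fall can leave a gene above 1 TPM. Of the class, 2557 genes were at least 4-fold lower. Among the 248 genes at least 16-fold lower, the stage 26 medians were 0.0565 and 0.165 TPM. A total summed over transcripts can stay above 0 through 1 minor transcript, and 14877 (52%) of the included genes had a single transcript.

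Most of the 8-cell TPM of the lower genes belonged to genes with 1 TPM or more in both stage 26 libraries. The 6229 lower genes held 3.65% and 7.06% of the TPM at stage 26, against 41.6% and 37.9% at the 8-cell stage. The 457 genes listed at 0 in both stage 26 libraries had held only 1.03% and 1.13% of the 8-cell TPM. The 3991 genes with 1 TPM or more in both stage 26 libraries held 3.47% and 6.88% at stage 26, against 36% and 31.7% at the 8-cell stage. The mean 8-cell share of the lower genes, 39.7%, was 60.3% without stage 26 replicate 2 and 26.1% with median-of-ratios scaling. The 632 genes with 10 TPM or more in both stage 26 libraries held 1.97% and 4.84% at stage 26, against 22.3% and 20.2% at the 8-cell stage. The stage 26 level that divides the class, together with the 2-fold rule, bounds the 8-cell level from below. An abundant gene also has more room to stay above the dividing level, so these shares are a description. Stage 26 replicate 2 held more TPM than replicate 1 in the lower genes at every fold: at least 4-fold lower genes held 0.864% and 1.72% in replicates 1 and 2, against 21.4% and 19.6% at the 8-cell stage. At least 16-fold lower genes held 0.0352% and 0.0703% at stage 26, against 5.74% and 6.01%. The 2634 genes within 2-fold held 7.46% and 7.04% at stage 26, against 6.86% and 7.71%. Genes below the minimum of 5 TPM, which are not among the 28592, took up 27.7% and 13.2% at stage 26, against 8.37% and 10.8%, so this part of stage 26 RNA lay outside the comparison and differed between its 2 libraries.

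**Figure D2:**
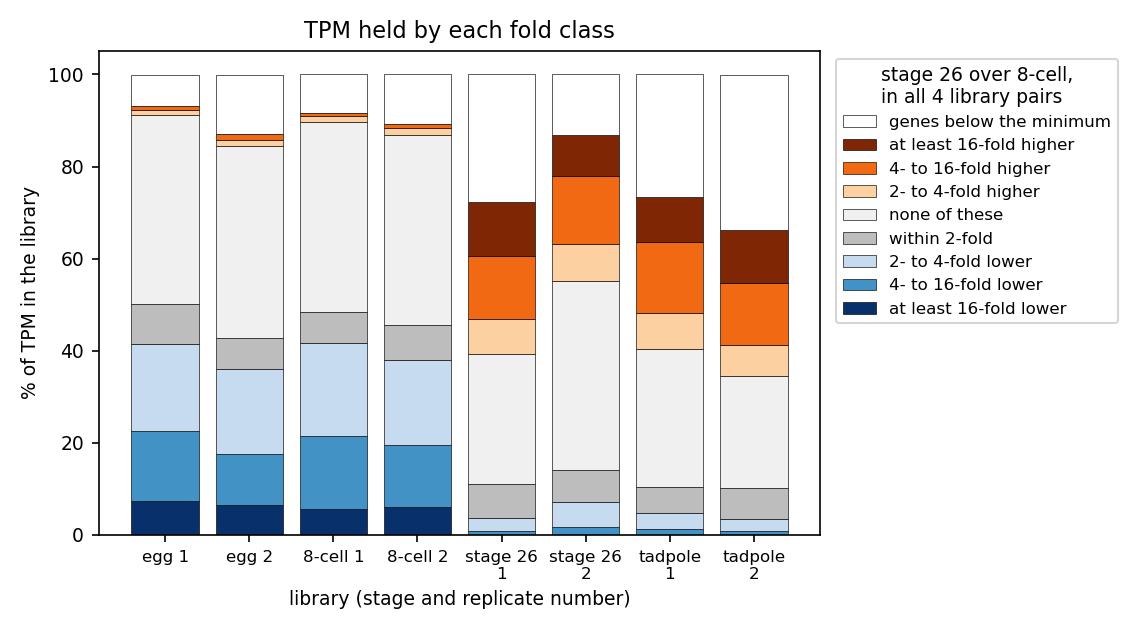
Percent of TPM held by each fold class (stage 26 over 8-cell, in all 4 library pairs) in each of the 8 libraries, ordered by stage, with genes below the minimum of 5 TPM in white. The lower classes (blue) sum to 41.6% and 37.9% in the 8-cell libraries and to 3.65% and 7.06% at stage 26; the egg and tadpole libraries, which did not form the classes, look like the 8-cell and stage 26 libraries in their blue and orange shares.

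With TPM as deposited, abundant genes were lower more often than scarce ones, and scarce genes were higher more often. Genes were divided by their mean over the 4 libraries. Under 10 TPM, 4339 of 15053 genes (28.8%) were at least 2-fold higher at stage 26 in all pairs and 2870 (19.1%) lower. From 10 to 100 TPM, 2425 of 12357 (19.6%) were higher and 2993 (24.2%) lower. From 100 to 1000 TPM, 209 of 1105 (18.9%) were higher and 343 (31%) lower. At 1000 TPM or more, 12 of 77 genes (15.6%) were higher and 23 (29.9%) lower. Over all tested genes 19.9% were 2-fold higher and 8.73% lower, so the higher shares from 10 to 1000 TPM are near that background. By limma 21.3% rose and 7.29% fell under 10 TPM, 12.9% and 9.56% from 10 to 100 TPM, 12.2% and 13% from 100 to 1000 TPM, and 6.49% and 11.7% at 1000 TPM or more. Against 10.6% higher and 3.27% lower of all tested genes, the shares that rose from 10 to 1000 TPM are near the background. Which direction led depended on the scaling. Median-of-ratios scaling turned the order from 10 to 100 TPM, with 23.1% higher and 15.5% lower, and quantile normalization left 26% higher and 24.9% lower under 10 TPM. With median-of-ratios scaling 22.5% of the genes from 100 to 1000 TPM were 2-fold higher and 19.9% lower, and with quantile normalization 22% and 27.7%. The minimum of 5 TPM acts on the lowest class most, since a scarce gene with a mean under 10 TPM that is above 5 TPM in 2 libraries can be near 0 in the other 2.

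**Figure D3:**
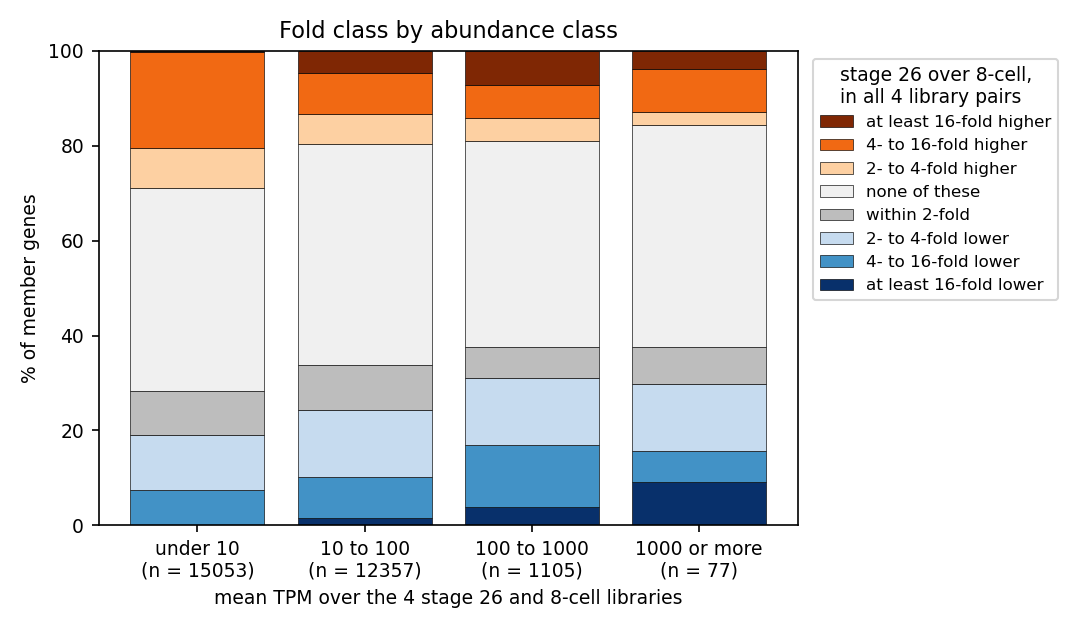
Percent of included genes in each fold class (NF stage 26 over the 8-cell stage, in all 4 library pairs), by class of mean TPM over the 4 libraries, with the number of genes under each bar. With TPM as deposited, the blue lower classes make up 19.1% of genes under 10 TPM and 31% of genes from 100 to 1000 TPM, and the orange higher classes 28.8% and 18.9%; with median-of-ratios scaling the class from 100 to 1000 TPM has 22.5% higher and 19.9% lower.

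The difference between the 2 stage 26 libraries was largest for the abundant genes, and there it reached the difference of stage 26 replicate 2 from the 8-cell libraries. The median size of the log2(TPM + 1) difference between the stage 26 replicates was 0.75 for genes with a mean under 10 TPM, 0.95 from 10 to 100, 1.33 from 100 to 1000 and 1.7 at 1000 TPM or more. Between the 8-cell replicates it stayed between 0.39 and 0.5. Between stages it was 1.58 to 1.75 under 10 TPM. At 1000 TPM or more it was 2.91 and 2.81 for stage 26 replicate 1 and 1.58 and 1.55 for stage 26 replicate 2. The median of replicate 1 minus replicate 2 was -1.11 from 100 to 1000 TPM and -1.57 at 1000 TPM or more. It was also below 0 in both classes with median-of-ratios scaling (-1.71 and -2.19) and quantile normalization (-0.79 and -0.92). Under 10 TPM it was 0.42 as deposited, about 0 with median-of-ratios scaling and -0.09 after quantile normalization. From 100 to 1000 TPM the median log2(TPM + 1) difference from the 2 8-cell libraries was -1.39 and -1.47 for stage 26 replicate 1, and -0.36 and -0.31 for replicate 2.

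**Figure D4:**
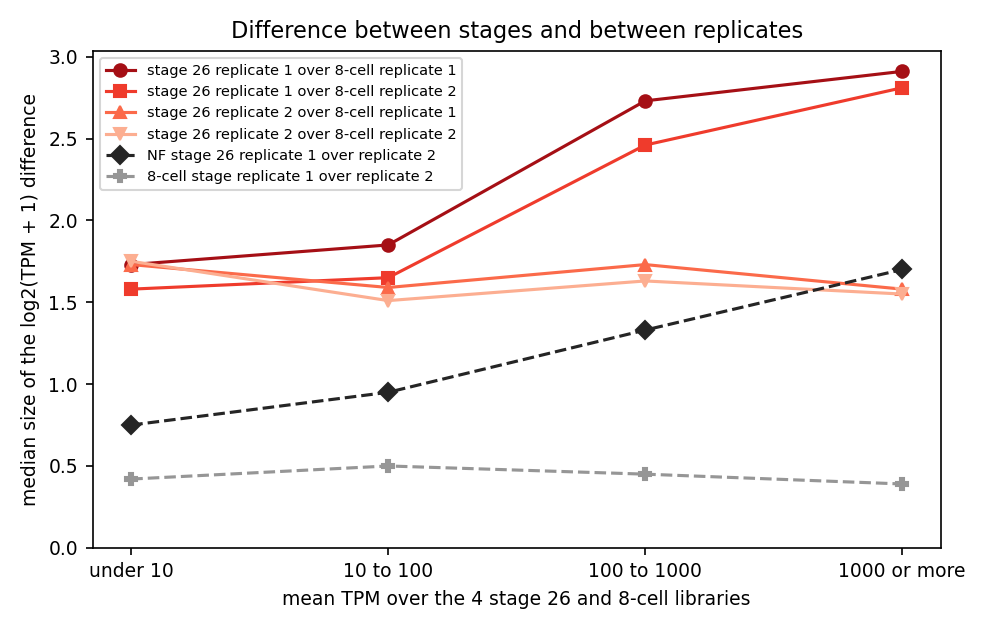
Median size of the log2(TPM + 1) difference, by class of mean TPM, for the 4 stage 26 over 8-cell pairs (solid lines) and between the 2 replicates of each stage (dashed). The stage 26 replicates differ by 0.75 in the lowest class and 1.7 in the highest, where they reach the line of stage 26 replicate 2 over the 8-cell libraries.

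Over all 28592 genes, 8699 were at least 2-fold higher and 8483 lower by stage 26 replicate 1 against both 8-cell libraries, and 7834 higher and 9202 lower by replicate 2. At 4-fold, replicate 1 gave 6188 higher and 4463 lower, and replicate 2 gave 5528 higher and 4035 lower. Only 89 genes were 2-fold higher by 1 stage 26 library and 2-fold lower by the other. Of the 12744 genes in no fold class, 2254 were 2-fold lower by replicate 1 alone, 2973 were lower by replicate 2 alone, 1714 were higher by replicate 1 alone and 849 were higher by replicate 2 alone. Both stage 26 libraries lay above both 8-cell libraries for 9522 genes (33.3%; 42% of all tested genes) and below both for 11295 (39.5%; 19.9% of all tested genes).

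Most genes abundant in cleaving embryos had 10 TPM or more at stage 26, while fewer had 100 TPM or more. Of 1042 genes with 100 TPM or more in both 8-cell libraries, 255 (24.5%) also had 100 TPM or more in both stage 26 libraries and 857 (82.2%) had 10 TPM or more. Only 72 (6.91%) were under 10 TPM in both stage 26 libraries, 28 were under 1 TPM and 9 were listed at 0. Seen from stage 26, 537 genes had 100 TPM or more in both of its libraries. Of these, 445 (82.9%) had 10 TPM or more in both 8-cell libraries, 52 (9.68%) were under 1 TPM in both and 20 were listed at 0 in both. Choosing genes as high in 1 stage favours lower values in the other. Another choice took the 648 included genes with 100 TPM or more in both egg libraries, which lie outside the comparison. Of these, 564 (87%) had 10 TPM or more in both stage 26 libraries and 29 (4.48%) were under 10 TPM in both. All 648 had 10 TPM or more in both 8-cell libraries. Egg genes that missed the minimum of 5 TPM in the compared libraries are not among the 648, so these shares are a description too.

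The level of a gene in unfertilized eggs ran with the direction of its change. Among 1243 included genes with an egg mean of 100 TPM or more, 38 (3.06%) were at least 2-fold higher at stage 26 than at the 8-cell stage in all pairs and 578 (46.5%) were lower. From 10 to 100 TPM in eggs, 322 of 8536 (3.77%) were higher and 2911 (34.1%) lower. From 1 to 10 TPM, 2022 of 13023 (15.5%) were higher and 2506 (19.2%) lower, an order that median-of-ratios scaling turned (19.9% higher and 13.2% lower). Under 1 TPM in eggs, 4603 of 5790 (79.5%) were higher and 234 (4.04%) lower. Of all tested genes, at any egg level, 19.9% were higher and 8.73% lower. The egg libraries took no part in choosing the genes or forming the classes, but a gene scarce in eggs tends to be scarce at the 8-cell stage too, and had then to reach 5 TPM at stage 26 to be included. The 2 egg libraries also differed: 50.4% of the included genes were at least 2-fold apart between them, against 42.8% between the stage 26 libraries, 17.7% between the 8-cell libraries and 29% between the tadpole libraries.

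The included genes were also set in a contrast that shares no library with this one, tadpoles over eggs. The minimum of 5 TPM bears on it. Only the stage 26 libraries passed for 6954 genes, and only the 8-cell libraries for 5225. A gene scarce in eggs tends to be scarce at the 8-cell stage too, so part of a shared direction may follow from how genes were included. Same-numbered libraries of stage 26 and tadpoles deviated in opposite directions, with r = -0.515 across genes, so the contrasts may not be fully independent. Of the 6985 genes at least 2-fold higher at stage 26, 5160 (73.9%) were at least 2-fold higher in both tadpole libraries than in both egg libraries, and 3 were 2-fold lower. Over the 28592 genes 24.3% were higher in this way, and over all tested genes 31%. Of the 6229 genes at least 2-fold lower at stage 26, 2428 (39%) were 2-fold lower in tadpoles than in eggs and 56 were 2-fold higher. Lower in this way were 12.6% of the 28592 genes and 4.07% of all tested genes. Many tested genes lie under the minimum of 5 TPM, however. On the TPM + 1 scale a gene under 1 TPM in an egg library cannot be 2-fold lower. Whether the share with the same direction was larger for higher or for lower genes depended on the scaling. After quantile normalization it was 57.8% for higher genes and 60.4% for lower genes. Without egg replicate 1 the share was 77.7% for higher and 57.9% for lower genes, and without egg replicate 2 it was 84.6% and 58.3%. For genes at least 16-fold lower at stage 26, the count was 173 of 248 (69.8%), and for those at least 16-fold higher, 632 of 687 (92%). The 6229 lower genes held 41.4% and 36% of the TPM in the egg libraries, 41.6% and 37.9% at the 8-cell stage, 3.65% and 7.06% at stage 26, and 4.71% and 3.48% in tadpoles. In both tadpole libraries 1350 of them (21.7%) were under 1 TPM, and 3967 (63.7%) were at 1 TPM or more. The 6985 higher genes held 33% and 31.7% of the TPM in the tadpole libraries, and 6371 of them (91.2%) had 1 TPM or more in both, against 84.9% of all included genes.

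A gene total can hide opposite changes of its transcripts. Of the 13715 included genes with 2 or more transcripts, 2957 had at least 2 that themselves reached 5 TPM in 2 of the 4 libraries. Among these 2957 genes, 43 (1.45%) had both a transcript at least 2-fold higher and one at least 2-fold lower in all 4 pairs. Of the 320 whose total lay within 2-fold, 13 (4.06%) did. For 4022 of the 13715 genes no single transcript reached the minimum, so these entered through the sum alone.

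The genes given by identifier were called by limma, averaged 50 TPM or more in the 4 compared libraries, and had the largest rise or fall in the pair of libraries that showed it least. There were 249 such genes that rose and 327 that fell. Gene c80106_g1, with 3 transcripts, had 29675 and 7977 TPM at stage 26, against 0.567 and 1.81 TPM at the 8-cell stage. It ranked first and second among the included genes in the stage 26 libraries. The log2(TPM + 1) change was 12.84 (SE 0.86, adjusted p = 0.0065, limma) and between 11.47 and 14.21 in the 4 pairs. The 2 stage 26 values are several-fold apart, yet both are far above the 8-cell values.

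Gene c4346_g1, with 2 transcripts, showed a rise with closer replicates. It had 1460 and 2224 TPM at stage 26, against 0.031 and 0.02 TPM at the 8-cell stage, and was listed at 0 in both egg libraries. The log2(TPM + 1) change was 10.78 (SE 0.6, adjusted p = 0.0065, limma). In tadpoles it had 3139 and 1424 TPM, a range that holds the stage 26 values.

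The falls were from maternal levels that varied between the egg libraries. Gene c103462_g1, with 3 transcripts, had 0.147 and 0.047 TPM at stage 26, against 1140 and 1775 TPM at the 8-cell stage, a log2(TPM + 1) change of -10.34 (SE 1.15, adjusted p = 0.0115, limma). Its 3 transcripts were all lower: the highest value of any of them at stage 26 was 0.147 TPM. In eggs the gene had 4483 and 306 TPM, and in tadpoles 0.054 and 0 TPM. Gene c152751_g1, with 1 transcript, was listed at 0 in both stage 26 libraries, against 1270 and 1003 TPM at the 8-cell stage (adjusted p = 0.0195, limma), so no fold is given. It had 2470 TPM in egg replicate 1 but 28.6 TPM in egg replicate 2. These 4 calls were lost without either 8-cell library (adjusted p 0.0929 to 0.151, limma) and in a fit to the 4 compared libraries (adjusted p = 0.0879, limma). The call of c152751_g1 was also lost without any 1 stage 26 library (adjusted p = 0.0956 and 0.0568, limma) or any 1 tadpole library (adjusted p = 0.0504 each, limma).

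As a contrast, the 2 most abundant of the 643 genes whose 4 pairs all lay within 1.5-fold are given, with no test. Gene c134586_g1 had 4658 and 3573 TPM at stage 26, against 3796 and 4899 TPM at the 8-cell stage. Gene c134596_g1 had 926 and 531 TPM at stage 26, against 716 and 749 TPM at the 8-cell stage. The libraries of the 2 stages overlap for both genes. Being steady between these stages did not mean steady between egg libraries, which held 6839 and 1531 TPM of c134586_g1 and 2096 and 309 TPM of c134596_g1.

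**Figure D5:**
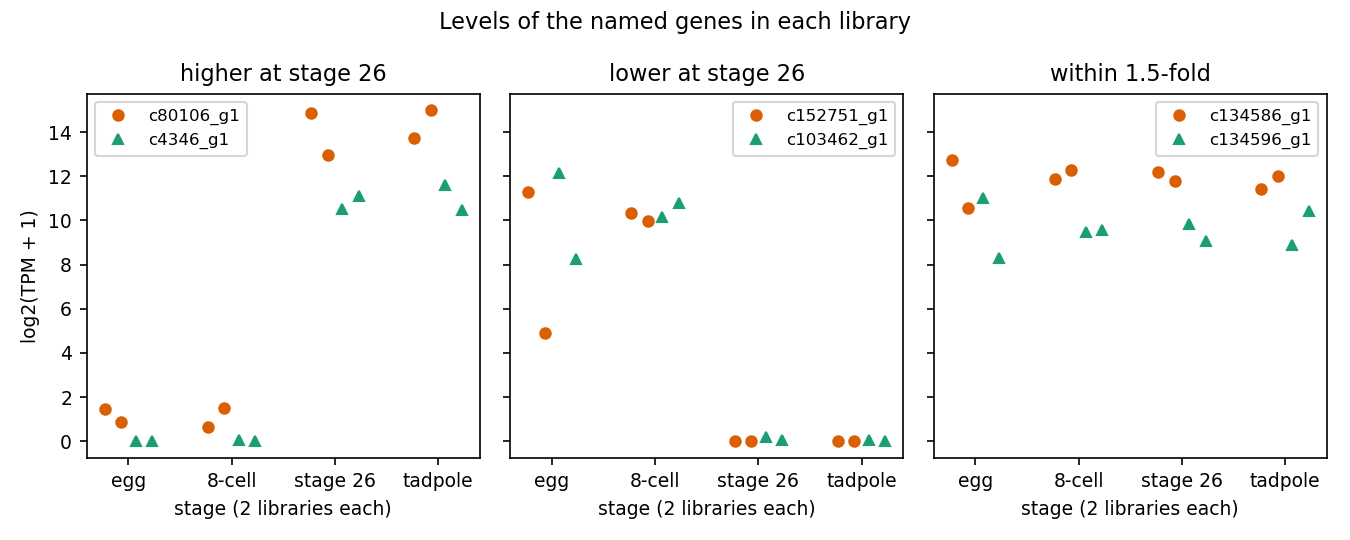
Log2(TPM + 1) of the genes given by identifier in each library (2 per stage, in order of development): 2 that rose (left), 2 that fell (middle) and 2 within 1.5-fold (right). The rises are from near 0 in egg and 8-cell libraries, the falls reach 0 or close to it at stage 26 and in tadpoles, and the egg libraries are widely apart for c152751_g1 (2470 and 28.6 TPM).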

How the data were processed

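Poly-A RNA of whole eggs, embryos and tadpoles was sequenced, 2 libraries for each of 4 stages. Per the submitters' processing notes, the authors made the deposited TPM values with kallisto 0.42.4; how the transcripts were assembled and filtered is not given in the sources used here. Each column was matched to its sample by title, and the source names gave stage and replicate number. TPM was summed per assembly gene (identifier without the isoform number). Genes with 1 TPM or more in at least 2 of 8 libraries were fitted as log2(TPM + 1) with limma 3.58.1 in R 4.3.3, with a mean for each stage, 1 spread per gene over all 8 libraries and a variance trend (4 residual and 3.12 prior degrees of freedom). The fit was run on simulated data with independent normal noise of the fit's own spread. These lack the differences in composition between the libraries, so they cannot show that the calls hold here. Fold classes, shares and plots used Python 3.11.15, pandas 2.3.3, numpy 2.4.6 and matplotlib 3.10.9. Named genes followed a rule: among limma calls averaging 50 TPM or more in the 4 compared libraries, the 2 with the largest smallest-pair change in each direction, and the 2 most abundant genes within 1.5-fold in all pairs. No gene list was tested, since the identifiers carry no names. The genes, classes and tests were chosen with earlier results of these data known. Alternatives covered the pseudocount, filters, scaling, the prior variance, the libraries fitted, the unit summed, a replicate block and each library left out; 1, the crossed block, was chosen after seeing the data.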

Additional observations from a re-analysis of the deposited data

How the results depend on the processing

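The counts of limma calls rest on the spread estimated over all stages. In a fit to the 4 compared libraries limma called 0 genes higher and 0 lower, with 7235 higher and 6995 lower at an unadjusted p under 0.05. With a pseudocount of 5, 3115 rose and 1454 fell, and without genes at 0 in all egg and 8-cell libraries 2939 rose and 1837 fell. Fitting only the included genes gave 6101 and 4064, and median-of-ratios scaling 5401 and 1495. Leaving out 1 library gave 0 to 5253 rises and 0 to 3648 falls. The replicate numbers did not pair the samples: same-numbered libraries of stage 26 and the 8-cell stage deviated with r = -0.146 across genes, those of stage 26 and tadpoles with -0.515, and the other 4 pairs of stages with -0.022 to 0.083. With the replicate number as a block 3212 rose and 919 fell, and with the stage 26 numbers crossed 5260 and 2650. The log2 changes of the 4 named calls kept their sign under 20 alternatives; 17 kept the call for each of c80106_g1, c4346_g1 and c103462_g1, and 13 for c152751_g1, with adjusted p from 0.000699 to 0.151 (limma).

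Fold classes in all pairs moved with the pseudocount, the minimum and the number of pairs. With a pseudocount of 5, 4126 genes were 2-fold lower, 1074 were 4-fold higher and 795 lower, 101 were 16-fold higher and 74 lower, and 6469 lay within 2-fold. With 0.1, 3404 were 16-fold higher and 935 lower. Median-of-ratios scaling left 1582 at 4-fold and 156 at 16-fold lower. A minimum of 1 TPM gave 23735 genes 2-fold higher, 10393 lower, 7617 4-fold higher and 7781 within 2-fold; a minimum of 10 TPM gave 3300 2-fold higher, 2341 4-fold higher and 1355 within 2-fold. Leaving out 1 library, which leaves fewer pairs, gave 7661 to 8699 genes 2-fold higher, 7385 to 9202 lower, 5528 to 6188 4-fold higher, 3022 to 4463 lower, 800 to 1736 16-fold higher, 331 to 576 lower, and 4676 to 6329 within 2-fold.

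The mean stage 26 share of the 2-fold higher genes (32.4%) was 30.1% with a pseudocount of 5, 36.1% and 34.4% with median-of-ratios and quantile scaling, 31.4% with the most abundant transcript, 34.1% with components, 39.3% and 28.3% with minimums of 1 and 10 TPM, and 34% to 40.3% without 1 library. The mean 8-cell share of the 2-fold lower genes (39.7%) was 36.4% with a pseudocount of 5, 26.1% with median-of-ratios scaling and 45.4% to 60.3% without 1 library. The share of 2-fold higher genes that were also higher in tadpoles over eggs (73.9%) was 77.9% and 56.4% with pseudocounts of 0.1 and 5, 68.8% and 57.8% with median-of-ratios and quantile scaling, 69.5% with the most abundant transcript, 75.7% with components, 56.3% and 78.4% with minimums of 1 and 10 TPM, and 65.8% to 84.6% without 1 library. For lower genes (39%) these were 43.7% and 31.9%, 46.8% and 60.4%, 37.6%, 40.7%, 27.2% and 46.4%, and 31% to 58.3%. Where no construction shows it, the cause was not tested.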

Other observations

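Of the 5790 included genes with an egg mean under 1 TPM, 234 (4.04%) were at least 2-fold lower at stage 26 than at the 8-cell stage in all 4 library pairs, against 8.73% of all tested genes, and 167 (2.88%) fell by limma at an adjusted p under 0.05, near the 3.27% of all tested genes called lower. The genes with an egg mean of 100 TPM or more and at least 2-fold higher at stage 26 numbered 38 of 1243 (3.06%), against 19.9% of all tested genes. In this egg class 0 genes were 16-fold higher, and 7 (0.563%) rose by limma, against 10.6% of all tested genes. Of 648 included genes with 100 TPM or more in both egg libraries, 561 had as much in both 8-cell libraries. In stage 26 replicates 1 and 2, 45 and 120 included genes reached 1000 TPM. These low shares are a description, and their cause was not tested. Genes with more transcripts in the table were more often in the higher class: 22.4% of the 14877 genes with 1 transcript were at least 2-fold higher and 24.2% lower, against 24.5% and 21.1% of the 9684 with 2 or 3 transcripts and 31.8% and 14.7% of the 4031 with 4 or more; this was not tested.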
